A study of Mus musculus with 82 samples.

Results

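The clustered protocadherin genes comprised all protein-coding genes of mouse chromosome 18 whose symbol begins with Pcdha, Pcdhb or Pcdhg, which gave 57 of the 21853 protein-coding genes of the mm10 annotation. The alpha subcluster held 14 of them, the beta subcluster 22 and the gamma subcluster 21, all transcribed from the plus strand. The alpha subcluster spanned chr18:36930285-37187661, the beta subcluster chr18:37264938-37524479 and the gamma subcluster chr18:37661793-37841873, and with the intervals between them the cluster extended over 912.6 kb. The annotation gives the symbol Pcdha11 to 2 genes, and the one starting at 37005203 is called Pcdha10 here, its RefSeq name. Pcdhgb8 is annotated as a polymorphic pseudogene and was not counted as a member.

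Clustered protocadherins are cadherin-like adhesion proteins of the neuronal surface. In the alpha and gamma subclusters each variable exon has its own promoter and is spliced to constant exons shared by the subcluster, whereas each beta gene is contained in a single exon. Neurons choose among these promoters largely at random, so that individual cells display different sets of proteins, and the C-type genes at the end of the alpha and gamma subclusters follow more regular programs. CTCF, the zinc-finger protein at which cohesin-driven loop extrusion halts, binds most of these promoters, and contacts between promoters and distal enhancers such as HS5-1, located between the alpha and beta subclusters, depend on CTCF and cohesin. Chromosome 18 sequences are not shown, and the CTCF motif is referred to by its name.

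The lists came from stembryos (gastruloids), small balls of mouse embryonic stem cells (EmbryoMax 129/SVEV) that elongate after a pulse of the Wnt agonist Chiron between 48 h and 72 h after aggregation. Of the 80 deposited lists of enriched regions, 70 were used here. Wild-type (wt) stembryos were assayed for CTCF at 72 h and 168 h, for the cohesin subunit RAD21 in 16 libraries from 48 h to 168 h, for H3K27ac, a mark of active promoters and enhancers, at 9 stages from 48 h to 168 h, for H3K27me3, the Polycomb mark, at 72 h, 96 h, 120 h and 144 h, and for RNA polymerase II (PolII) and the cohesin loader NIPBL at 8 stages each from 72 h to 168 h. A second set of numbered wt libraries was available for H3K27ac at 96 h and 120 h and for H3K27me3 at 96 h. The mutant lines carried changes at CTCF binding sites (CBS) of the HoxD cluster on chromosome 2, not on the chromosome of the protocadherins. Del(CBS1), Del(CBS1-2), Del(CBS1-5) and Del(CBS2) were assayed for CTCF at 96 h, Del(CBS4) at 120 h and Ins(2xCBS-d4d8), in which a cassette with 2 CTCF sites stands next to CBS1, at 144 h. Del(CBS1) was also assayed for RAD21 at 96 h in 2 libraries and Del(CBS1-5) at 120 h in 1 library. The deletions and the insertion were made in clonal stem cell lines, Del(CBS1-2) on top of Del(CBS1), the Del(CBS1-5) line was derived from mouse blastocysts, and each library pooled many stembryos.

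The lists held 25762 to 64255 regions for CTCF, 31823 to 71196 for RAD21, 24002 to 67663 for H3K27ac, 7680 to 11469 for H3K27me3, 12304 to 20672 for PolII and 4888 to 40490 for NIPBL. Read totals are not part of these lists. The lowest background, solved from the deposited values and standing for depth, lay between 1.12 and 5.58 fragments per position in these 6 assays. At HoxD itself, 6 CTCF sites were shared by both wt lists between the starts of Hoxd13 and Hoxd1, of which 5 were called in Del(CBS1), 4 in Del(CBS1-2), 2 in Del(CBS1-5), 5 in Del(CBS2), 4 in Del(CBS4) and 5 in Ins(2xCBS-d4d8). The site nearest to Hoxd1 had a CTCF fold enrichment of 11.87 and 13.41 in wt and no region in Del(CBS1), whereas a region of fold 7.71 still overlapped it in the list labelled Del(CBS1-5). Stages with more than 1 wt library were 72 h, 84 h, 96 h, 108 h, 132 h and 144 h for RAD21 and the numbered stages for H3K27ac and H3K27me3. All other stages had a single library, including RAD21 at 48 h and 168 h, the ends of its course. As libraries came from whole stembryos, fewer cells carrying a mark and less of it per cell cannot be told apart. Per the study's methods, all stembryos were taken up to 96 h, whereas from 108 h only elongating, non-apoptotic ones were kept. Early and late libraries of every assay therefore also differ in this selection, which cannot be told apart from stage. H3K27ac was called at the start at 1 or more stages for 6 of 6 pluripotency genes, 6 of 6 streak and axial progenitor genes, 4 of 4 paraxial mesoderm genes, 3 of 4 neural progenitor genes and 6 of 8 neuronal genes, against 66.1% of all protein-coding genes. Since variable exons of a subcluster resemble each other and ambiguous fragments were removed before calling, absence of a region at a member is uncertain.

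CTCF occupied the start of most members. A start was taken as the window of 1 kb on each side of the annotated 5′ end, and a member counted where a region overlapped it by at least 1 base. In both wt lists a region lay at the start of 51 of 57 members, against 19.8% of all protein-coding genes. These were 13 of 14 alpha, 20 of 22 beta and 18 of 21 gamma genes. At 72 h 53 members had a region, against 24.3% of genes, and at 168 h 51 had one, against 23.6%. Pcdhb9 and Pcdhgb2 had a region at 72 h and none at 168 h.

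The members without CTCF were few and were mostly C-type genes. Pcdhac2, Pcdhb1 and Pcdhgc5 had no region at the start in any of the 8 CTCF lists. Pcdhgc4, a gene required for the survival of neurons, had a region only in Del(CBS4), where it covered 8.80% of the window. The other C-type genes were occupied in both wt lists, where CTCF covered 32.9% (72 h) and 60.6% (168 h) of the window of Pcdhac1, and 13.1% and 11.2% of that of Pcdhgc3. Pcdhac2 and Pcdhgc4 nonetheless carried H3K27ac, and Pcdhac2 and Pcdhb1 carried H3K27me3, as described below.

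**Figure D1:**
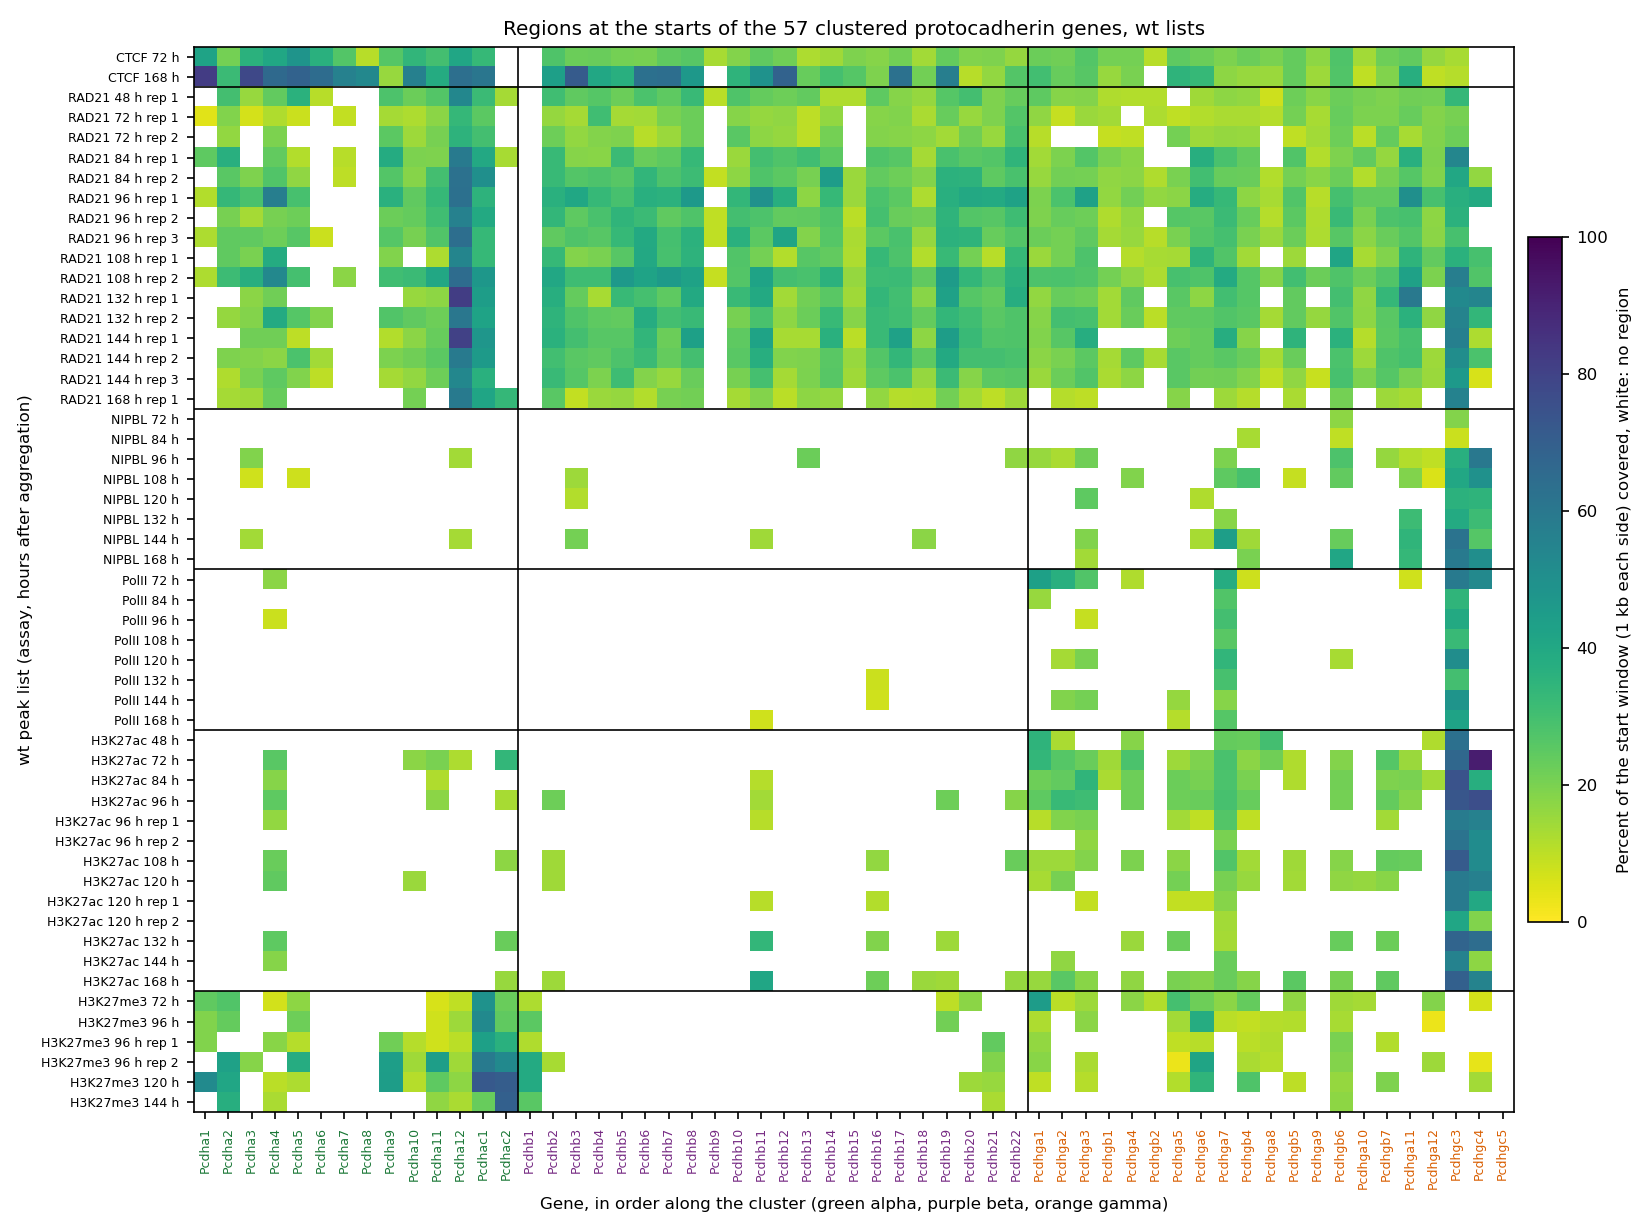
Percent of the 2 kb start window covered by called regions (colour, white for no region) for each of the 57 members (columns, in order along the cluster) in each wt list (rows, by assay and hours after aggregation). CTCF and RAD21 filled most columns, H3K27ac, PolII and NIPBL were concentrated in the gamma columns, and H3K27me3 in the alpha and gamma columns.

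Within a list, the fold enrichment of a region (fragments at the summit relative to local background, as the authors' peak caller gave it) was read as a percentile among all regions of the same list. The median member stood at percentile 59.8 at 72 h and 50.0 at 168 h over the 51 members with both. The percentile was lower at 168 h for 37 of these 51 members, with a median difference of −9.0 points. The alpha genes differed by −9.0, the beta genes by −7.8 and the gamma genes by −11.3 points. There was 1 library per stage, so this difference has no replicate check. The same count was not made over all shared sites, so it cannot be said to be particular to the members. A percentile also depends on how many weak regions a list holds. Per the paper's reporting summary, the 72 h library had more read pairs than the 168 h one.

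Named after their values were seen, the strongest CTCF regions belonged to Pcdhga3 at 72 h, with a fold enrichment of 14.15 (percentile 97.5), and to Pcdhac1 at 168 h, with 16.03 (percentile 98.2). Pcdhac1 had 13.19 (percentile 94.6) at 72 h. Pcdhb8 was next in the 168 h list with 14.91, after 11.31 at 72 h. Pcdhga10 was the weakest of those at 168 h, with 2.66 (percentile 4.1), after 5.42 at 72 h.

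The 6 mutant lists had CTCF at the start of 32 to 53 members, against 13.0% to 26.8% of all genes in the single CTCF lists. Regions lay at the start of 53 members in Del(CBS1-2) and in Del(CBS1-5), 52 in Del(CBS1) and 50 in Del(CBS2), with 41777 to 52518 regions and at most 22.9% of genes per list. In Ins(2xCBS-d4d8) at 144 h the count was 38 in a list of 39703 regions, against 26.8% of genes, and in Del(CBS4) at 120 h it was 32 in a list of 25762 regions, against 13.0%. In Del(CBS4) 10 of 14 alpha, 15 of 22 beta and 7 of 21 gamma genes had a region, and in Ins(2xCBS-d4d8) 11 of 14, 17 of 22 and 10 of 21. None of the wt CTCF lists was from 96 h, 120 h or 144 h, so genotype, stage and list length cannot be told apart in any of the 6 mutant lists. Over all 8 lists, 28 members had a region at the start in each, among them Pcdha1 to Pcdha6, against 9.40% of genes.

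CTCF sites were also placed along the cluster. Of 48786 sites shared by both wt lists, 64 lay in the cluster. These were 52 at starts, 7 over exons away from a start, 2 between the alpha and beta subclusters, 1 between the beta and gamma subclusters and 2 others inside the gamma subcluster. The sites between alpha and beta were neighbours, at chr18:37217078-37217745 and chr18:37218160-37218679, and both were called in all 8 CTCF lists and all 16 wt RAD21 lists. The site between beta and gamma, at chr18:37655312-37655842, had a fold enrichment of 12.48 at 72 h and 11.44 at 168 h. Of the others, the site at chr18:37761294-37761935 lay at the start of Pcdhgb8. A site at chr18:37840826-37841819 covered the last exon of the gamma genes, with fold enrichments of 12.97 and 14.5.

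Sites of the cluster were in all 8 CTCF lists in 36 of 64 cases, 56.2%, against 44.9% of the shared sites of the genome. RAD21 was present in all 16 wt lists at 34 of 64, 53.1%, against 39.1%. At the starts, the 72 h summit lay at or upstream of the annotated 5′ end in 42 of 52 sites, with a median position of −53 bp. The sites far downstream of the 5′ end were mainly at alpha genes, such as Pcdha4 at 580 bp, Pcdha5 at 458 bp, Pcdha6 at 574 bp and Pcdha12 at 565 bp. Another 5 beta sites lay inside the single exon of Pcdhb3, Pcdhb10, Pcdhb14, Pcdhb19 and Pcdhb20, 2169 to 2423 bp downstream of the 5′ end, in addition to the site at the start of the same gene. RAD21 was called at these exonic sites in 4, 14, 10, 0 and 1 of the 16 wt lists, respectively, whereas at the starts of these genes it was called in all 16.

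The orientation of the CTCF motif was scored with a matrix learnt from 2000 CTCF sites on other chromosomes and searched within 30 bp of the summit on both strands, at a score reached by 5% of background positions. Of 2000 other sites held out from learning, 63.2% had a match, and 49.5% of these matches were on the plus strand. In the cluster 24 of 64 sites (37.5%) had a match, 20 on the strand of the genes and 4 on the opposite strand. At starts a match lay on the strand of the genes for 10 of 14 alpha sites, 9 of 20 beta sites and 1 of 18 gamma sites, and no start had its best match on the opposite strand. The 4 opposite matches were at 2 of the exonic beta sites, at the last gamma exon and at another site inside the gamma subcluster. No match within this window says only that the matrix did not reach the threshold there. Searching the whole region gave 33 and 11 matches, and a score reached by 1% of background positions gave 6 and 4.

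Matches at alpha starts were placed from −113 to 587 bp around the annotated 5′ end with a median of 206 bp, and those at beta starts from −201 to −31 bp with a median of −67 bp. The match at the gamma start, Pcdhgb5, was at −122 bp.

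**Figure D2:**
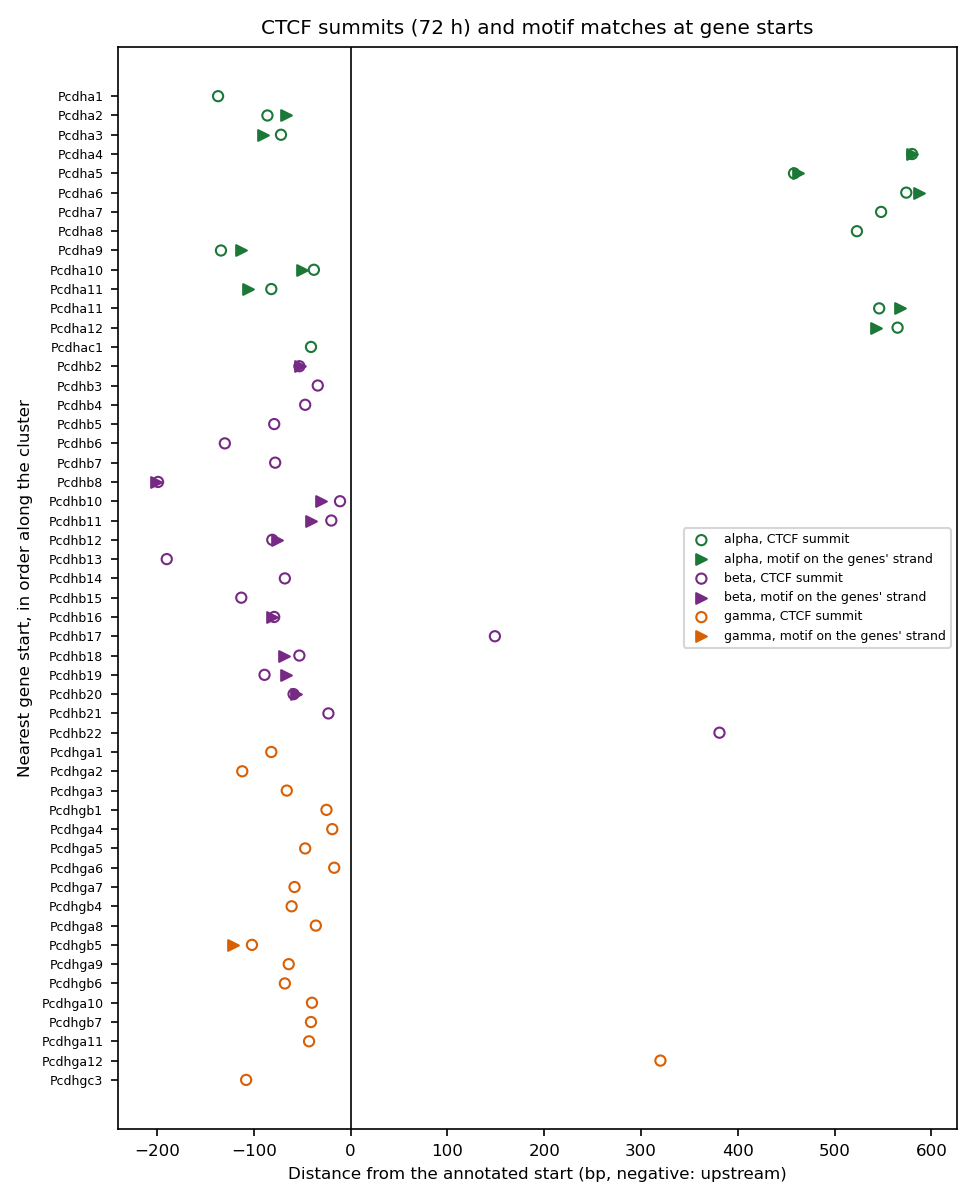
Distance in bp of the 72 h CTCF summit (circles) and of the CTCF motif match (triangles pointing along the strand of the genes) from the annotated start, for the 52 CTCF sites at starts (rows). Most summits lie just upstream of the start, the beta matches between −201 and −31 bp, and several alpha sites 458 bp or farther downstream.

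RAD21 accompanied CTCF at the starts, most regularly in the beta subcluster. Regions were called at the start in every one of the 16 wt lists for 29 of 57 members, against 5.95% of all genes. These were 3 of 14 alpha genes (Pcdha4, Pcdha12 and Pcdhac1), 19 of 22 beta genes and 7 of 21 gamma genes. At least 1 list had a region for 54 members, against 58.3% of genes. Pcdha8, Pcdhb1 and Pcdhgc5 had none in any wt list, and Pcdha8 had CTCF in both wt lists. The number per wt list ranged from 36 members at 168 h to 52 in a 108 h library. In the mutants 51 and 53 members had a region in the Del(CBS1) libraries and 51 in Del(CBS1-5). Over all 19 RAD21 lists, wt and mutant together, the share of all genes ranged from 10.6% to 46.5%. With lists of 31823 to 71196 regions, differences in member counts between lists cannot be told apart from list length.

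The C-type genes differed among themselves in RAD21. Pcdhac1 and Pcdhgc3 had it in 16 of 16 wt lists, Pcdhgc4 in 9, Pcdhac2 in 3 and Pcdhgc5 in none. Pcdhb9 and Pcdhgb2, whose CTCF region was called at 72 h alone, had RAD21 in 5 and 9 lists.

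**Figure D3:**
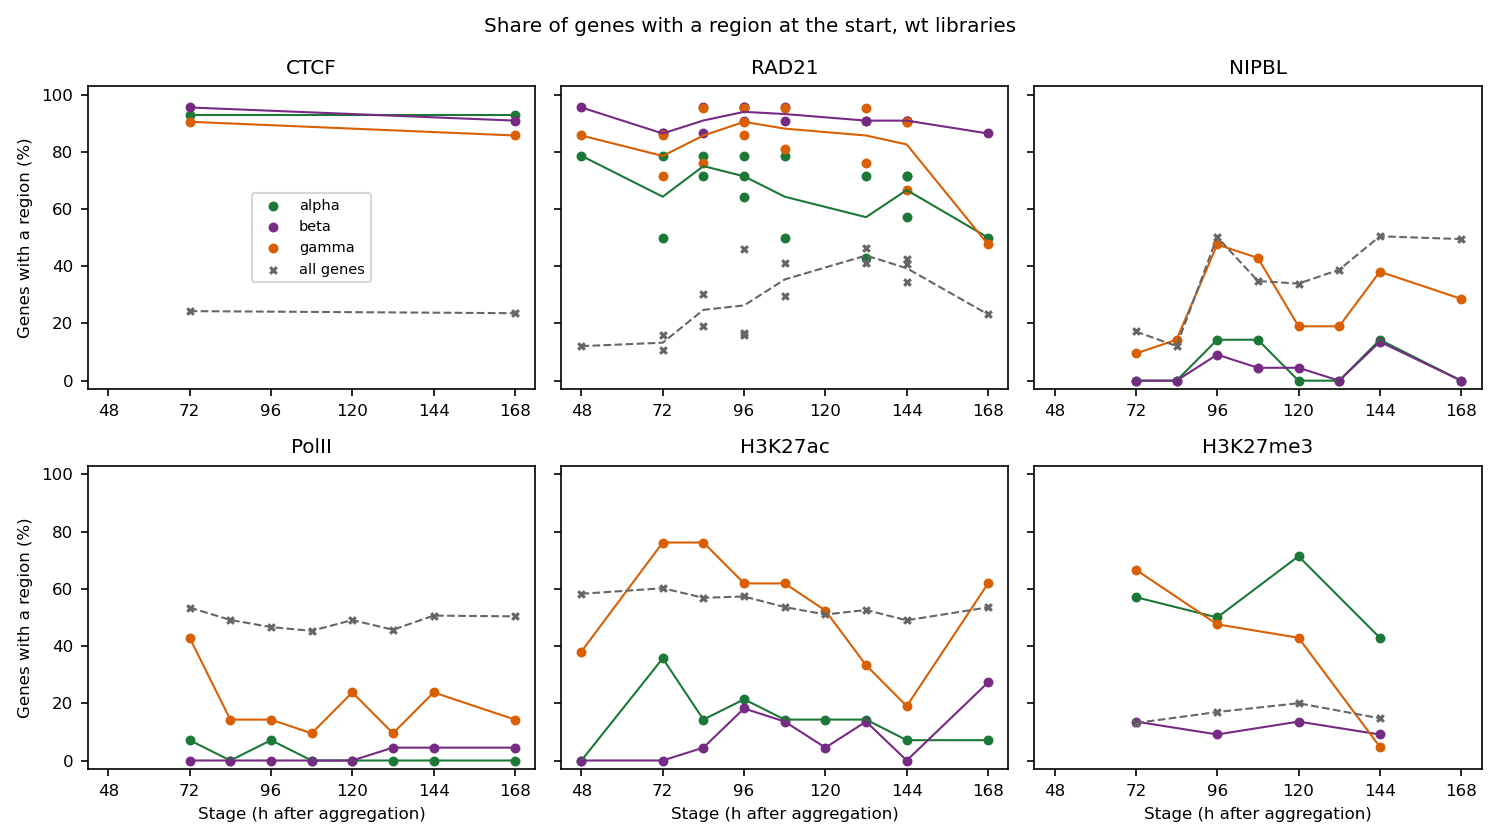
Percent of alpha (green), beta (purple) and gamma (orange) members and of all protein-coding genes (grey crosses) with a called region at the start, against hours after aggregation, for 6 assays in wt. Points are libraries and lines join stage means, and numbered H3K27ac and H3K27me3 libraries are not drawn.

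RAD21 pileup at the CTCF sites of the cluster was then followed over stages. The pileup is the number of fragments over the summit, scaled between libraries by the median ratio over common sites. Of the 64 sites, 34 had a RAD21 summit in all 16 wt libraries and could be tested, so that a site had to be called throughout, and the other 30 were not tested. With limma, stage and the tag under which the labels give the cells (cell type or cell line) as terms, and Benjamini-Hochberg adjustment over 19098 sites of the genome, RAD21 fell with stage at 19 of the 34 sites and rose at 0. Of all 19098 sites 15.8% fell and 14.7% rose. An unadjusted p under 0.05 was found at 22 of the 34. The median change was −0.18 (log2 per 24 h) in the cluster and 0.00 over all sites. Falls were seen in every class, at 2 of 3 alpha starts, 10 of 19 beta starts, 4 of 7 gamma starts and 3 of 5 sites away from a start.

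Pcdhb4 had the largest change of a member. Its scaled RAD21 pileup was 85.3 at 48 h, 61.2 and 53.7 at 72 h, and 69.8 and 43.1 at 84 h, and from 132 h to 168 h the 6 libraries lay between 13.0 and 29.1 with a median of 24.6. All 6 late libraries were below all 5 early ones, and the fitted change was −0.44 (log2 per 24 h, SE 0.07, adjusted p = 0.0001011, limma). Pcdhb22, the last beta gene, had 102.9 at 48 h, 90.5 and 107.4 at 72 h, and 153.2 and 70.4 at 84 h, against 39.0 to 64.2 with a median of 48.8 in the late libraries. Its early and late libraries did not overlap either, and its change was −0.36 (SE 0.06, adjusted p = 0.0002024, limma).

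Pcdha12, the last alternate alpha gene, had 169.1 at 48 h, 110.1 and 121.3 at 72 h, and 112.5 and 108.7 at 84 h, against 57.6 to 75.0 in the late libraries, and fell by 0.27 on the log2 scale per 24 h (SE 0.05, adjusted p = 0.000395, limma). Pcdhga11 changed by −0.26 (adjusted p = 0.0009179, limma), from 61.6 to 104.4 early to 38.1 to 60.3 late. The other members with the lowest adjusted p were Pcdhb12, Pcdhb2, Pcdhgb5, Pcdhb20, Pcdhb7 and Pcdhb21, with changes between −0.31 and −0.19.

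The site near the Pcdhgb8 start fell from 102.8 to 129.6 in the 5 early libraries to 66.2 to 75.5 in the 6 late ones (−0.22, SE 0.04, adjusted p = 0.0001752, limma). Over the last gamma exon the change was −0.30 (adjusted p = 0.007292, limma), although early values of 41.2 to 103.4 overlapped late values of 28.2 to 45.6. The neighbouring sites between alpha and beta differed from each other in outcome. The one nearer to the alpha genes changed by −0.20 (SE 0.06, adjusted p = 0.0104, limma), and the other by +0.05 (SE 0.06, adjusted p = 0.5853, limma). The difference between these 2 sites was not tested.

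Of the C-type starts, only Pcdhac1 and Pcdhgc3 could be tested, and neither passed. Starts of other members did not pass either, and C-type starts were not tested against them. Pcdhac1 had 64.0 to 140.7 early and 67.4 to 151.6 late, with a change of 0.08 (SE 0.06, adjusted p = 0.3573, limma), and Pcdhgc3 had 51.5 to 73.7 early and 51.0 to 78.0 late, with a change of 0.06 (SE 0.06, adjusted p = 0.4423, limma). Pcdhb16 and Pcdhb17, chosen after their values were seen as the beta starts with a coefficient above 0, had 0.03 and 0.06 (adjusted p = 0.7191 and 0.4135, limma).

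**Figure D4:**
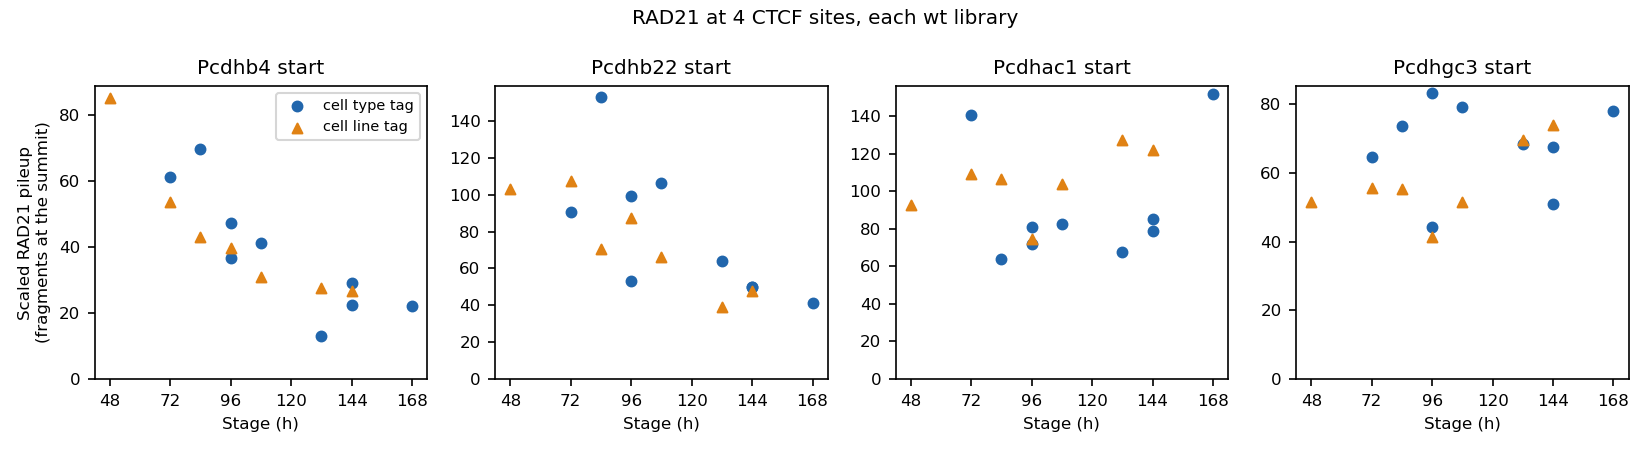
Scaled RAD21 pileup (fragments at the summit) in each of the 16 wt libraries against hours after aggregation at 4 CTCF sites, with libraries marked by their label tag. At Pcdhb4 and Pcdhb22 every library from 132 h on lies below every library up to 84 h, and at Pcdhac1 and Pcdhgc3 these libraries overlap.

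Within the 9 wt libraries under the cell type tag, 4 of 36 cluster sites fell and 0 rose, where 3.33% of all sites tested fell. Within the 7 under the cell line tag 16 of 45 fell and 0 rose, where 15.5% of all sites fell. Without the 48 h library, 12 of 34 fell, against 13.0% of all sites. The tag is a label, not a stated batch, and the SE and p describe the spread between pooled libraries.

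**Figure D5:**
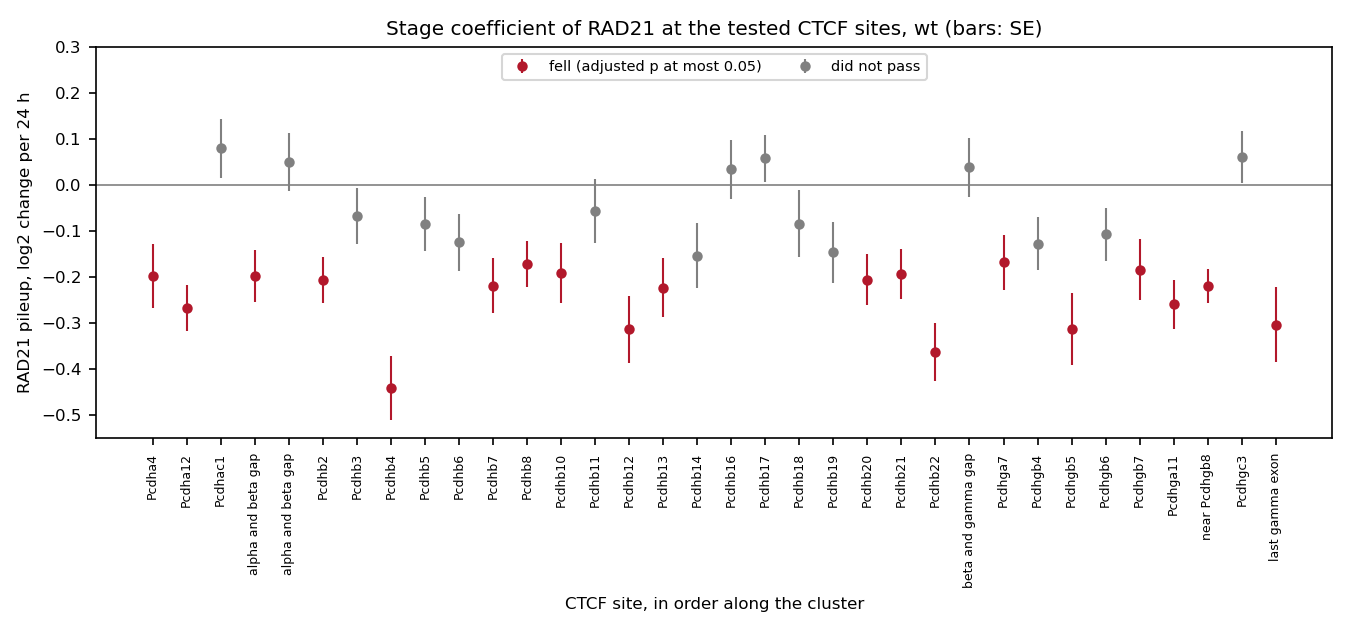
Change of RAD21 pileup with stage (log2 per 24 h, limma coefficient, bars 1 SE) at the 34 tested CTCF sites in order along the cluster, red where the adjusted p was at most 0.05. The 19 red sites are all below 0 and are spread over the alpha, beta and gamma subclusters.

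Del(CBS1), which lacks a CTCF site of HoxD, was compared with wt at 96 h. No cluster site passed among 54 tested (limma, adjusted over 30225 sites), as over the genome, where 0% passed, and 3 of the 54 had an unadjusted p under 0.05. The median difference, Del(CBS1) minus wt on the log2 scale, was −0.09 in the cluster, with a median SE of 0.26, and 0.00 over all sites. The cluster median was −0.03 without the first wt library and −0.12 without the second or the third. Differences in the cluster ranged from −0.92 to 0.38 and were below 0 at 40 of 54 sites. The lowest was Pcdha3, with scaled pileups of 37.7, 23.7 and 46.8 in wt and 19.9 and 17.0 in Del(CBS1), which do not overlap (adjusted p = 0.9999, limma). At the HoxD site nearest to Hoxd1, RAD21 had no region in the first Del(CBS1) library and a fold enrichment of 2.74 in the second, against 9.04, 15.90 and 14.17 in the 3 wt libraries at 96 h. Both Del(CBS1) libraries were under the cell line tag, as was 1 of 3 wt libraries. With 3 libraries against 2, differences of the size of this SE were not detectable.

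Marks of activity concentrated on the gamma genes. H3K27ac was called at the start at 1 or more of 9 wt stages for 29 of 57 members, against 66.1% of all genes. These were 18 of 21 gamma, 6 of 22 beta and 5 of 14 alpha genes. From 48 h to 168 h the number of members with H3K27ac was 8, 21, 19, 20, 18, 14, 12, 5 and 20, while the share of all genes lay between 46.4% and 60.2% in all wt H3K27ac lists. At 48 h all 8 were gamma genes, at 144 h 4 of 5, and at 168 h 13 of 20. Beta genes had none at 48 h, 72 h and 144 h and 6 at 168 h. The numbered libraries gave 12 and 4 members at 96 h, where the unnumbered one gave 20, and 8 and 3 at 120 h, where it gave 14, so that libraries of the same stage differed by as much as stages did.

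At every one of the 9 stages H3K27ac was called at the starts of 2 members, Pcdhga7 and Pcdhgc3, against 44.7% of genes. Pcdhgc3, a gene used in many cell types, was covered over 55.8% to 74.4% of its window, with a fold enrichment of 4.69 at 48 h and 8.94 at 168 h. Pcdhga7 was covered over 13.4% to 29.1%. From 48 h to 168 h its fold enrichment at the 9 stages was 8.87, 9.99, 11.98, 9.45, 8.52, 5.84, 4.07, 5.00 and 9.08. At 84 h this was percentile 99.2 of the list and at 132 h percentile 65.4. Pcdhgc4 had no region at 48 h and was covered over 17.0% to 92.0% of its window at the 8 later stages. Pcdhga2 had H3K27ac at 8 stages and Pcdha4, the alpha gene with most, at 7, as had Pcdhga1, Pcdhga4, Pcdhga5, Pcdhgb4, Pcdhgb6 and Pcdhgb7. Pcdhac2 had it at 5 stages, over 13.0% to 33.9% of the window, and Pcdhac1, Pcdhb1 and Pcdhgc5 had it at none.

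PolII was called at fewer members. A region lay at the start at 1 or more of 8 stages for 14 of 57 members, against 56.0% of all genes, and 11 of these were gamma genes. From 72 h to 168 h the counts were 10, 3, 4, 2, 5, 3, 6 and 4. The share of all genes ranged from 45.3% to 53.5% per list. Pcdhga7 and Pcdhgc3 were again the members with a region at all 8 stages, as had 42.8% of genes, over at most 38.2% and 58.7% of the window. Pcdhga3 had PolII at 4 stages, Pcdhga2 at 3, Pcdha4, Pcdhga1 and Pcdhga5 at 2, and Pcdhgc4 at 72 h alone, over 52.8% of its window. The beta genes with PolII were Pcdhb11 at 168 h and Pcdhb16 at 132 h and 144 h.

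NIPBL was called at 1 or more of 8 stages for 22 of 57 members, against 57.2% of all genes. These were 14 gamma, 5 beta and 3 alpha genes. From 72 h to 168 h the counts were 2, 3, 14, 12, 5, 4, 13 and 6, and the 2 shortest lists, with 6652 regions at 72 h and 4888 at 84 h, gave the lowest counts. The share of all genes ranged from 12.1% to 50.5% per list. Pcdhgc3 had NIPBL at all 8 stages, as had 7.43% of genes, over 18.6%, 8.10%, 36.9%, 40.2%, 35.8%, 38.9%, 62.0% and 58.8% of the window. Pcdhgb6 and Pcdhgc4 had it at 6 stages, Pcdhga11 at 5, and Pcdhga3, Pcdhga7 and Pcdhgb4 at 4. In lists restricted to the length of the shortest, 4 members had NIPBL, against 30.6% of genes, and 6 had PolII, against 51.4%.

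The share of the window covered was tested against stage for each gene with an exact two-sided permutation test of Spearman's rho, adjusted over all genes covered at 1 or more stages. No member passed in any of the 3 assays, which does not show the absence of a trend. The smallest exact permutation p possible was 5.511e-06 for H3K27ac and 4.96e-05 for PolII and NIPBL. Adjusted over all genes, a gene alone at that value would not pass. A member covered at 1 stage could not reach a low p, as for PolII at Pcdhga4, Pcdhgb4, Pcdhga11 and Pcdhgc4 (exact permutation p = 0.25 each). For H3K27ac 0 of 29 members passed, as did 0% of 14436 genes, and 3 members had an unadjusted p under 0.05, all with a negative rho (Pcdhga1, −0.81, exact p = 0.01134, adjusted p = 0.1671, and Pcdhga8 and Pcdhga4, −0.73 and −0.70). Pearson's r of Pcdhga1 was −0.80 (exact permutation p = 0.0102) and −0.96 without the stages 48 h and 168 h. For PolII 0 of 14 members passed, as did 0% of 12230 genes, with 1 unadjusted p under 0.05. For NIPBL 0 of 22 members passed against 6.97% of 12504 genes, all of which rose, and 2 had an unadjusted p under 0.05. The share over all genes was not stable, with 38.4% without the 96 h list and 0% without any other single list. The 2 members with an unadjusted p under 0.05 were Pcdhgc3 with rho 0.83 (exact p = 0.01538, adjusted p = 0.07334) and Pcdhga11 with rho 0.83 (exact p = 0.01667, adjusted p = 0.07334). Pearson's r of Pcdhga11 was 0.83 (exact permutation p = 0.01324, adjusted p = 0.056) and 0.76 without 72 h and 168 h. For Pcdhgc3, Pearson's r was 0.88 (exact permutation p = 0.00501, adjusted p = 0.04013, passed by 19.8% of genes with this measure) and 0.84 without these stages. The median rho of members and of all genes tested was −0.18 and −0.23 for H3K27ac, −0.41 and −0.02 for PolII, and 0.13 and 0.69 for NIPBL.

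Within 1 kb of the start, H3K27me3 was found at alpha and gamma genes and at few beta genes. It was called at the start at 1 or more of 4 stages for 30 of 57 members, against 22.1% of all genes. These were 10 of 14 alpha, 4 of 22 beta and 16 of 21 gamma genes. The counts at 72 h, 96 h, 120 h and 144 h were 25, 19, 22 and 9, and over the same stages the share of all genes was 13.1%, 16.9%, 20.0% and 14.8%. The gamma genes went from 14 to 10, 9 and 1, and the alpha genes from 8 to 7, 10 and 6. Regions of the cluster made up 0.776%, 0.466%, 0.430% and 0.260% of the lists of these stages. With 1 library per stage no test was made, and the numbered 96 h libraries gave 18 and 21 members.

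H3K27me3 was called at all 4 stages for 7 members, Pcdha2, Pcdha11, Pcdha12, Pcdhac1, Pcdhac2, Pcdhb1 and Pcdhgb6, which is 12.3% of members against 9.79% of all genes. Pcdhac1 was covered over 49.0%, 52.7%, 72.1% and 23.3% of its window from 72 h to 144 h. Pcdhac2, a gene of serotonergic neurons, was covered over 22.7%, 24.6%, 70.6% and 69.4%. Pcdhb1 was covered over 12.4%, 25.2%, 38.9% and 25.5%. Pcdhgb6 was the 1 gamma gene with a region at 144 h. Pcdhgc3 and Pcdhgc5 had none in any H3K27me3 list, and Pcdhgc4 was covered over 6.60% at 72 h and 13.7% at 120 h. With a window of 2.5 kb on each side, 47 members had H3K27me3 against 25.7% of genes. This is more than all alpha and gamma genes together, so the low beta count holds only for the narrower window. Over exons away from a start, 30, 20, 20 and 9 regions were called from 72 h to 144 h, beside 28, 22, 27 and 10 at starts.

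The marks were set side by side for each member. H3K27ac and H3K27me3 were both called at the same stage for 15, 10, 9 and 1 members from 72 h to 144 h, of which the gamma genes made up 11, 7, 7 and 0. The share of all genes with both ranged from 6.61% at 144 h to 12.5% at 96 h. CTCF in both wt lists with no H3K27ac, H3K27me3 or PolII in any unnumbered list was seen at 17 members, against 1.08% of genes. Of the 17, 12 were beta genes. Pcdha3, also among the 17, had H3K27me3 in 1 of the numbered 96 h libraries. The count holds for the window of 1 kb on each side. It was not made with 2.5 kb, where 47 members had H3K27me3. Pcdhgc5 had no region at the start in any of the 6 assays in wt. Pcdhac1 had CTCF, RAD21 and H3K27me3 and no H3K27ac, whereas Pcdhac2 had H3K27ac and H3K27me3 and no CTCF.

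Genes next to or between the members were counted in the same way. Zmat2, upstream of the cluster, and Taf7, a subunit of the general transcription factor TFIID encoded between the beta and gamma subclusters, had no CTCF at the start and had H3K27ac at 9 of 9 and PolII at 8 of 8 stages. Diaph1, a formin downstream of the cluster, had CTCF in both wt lists, RAD21 in 16 of 16, H3K27ac at 9 of 9 and PolII at 8 of 8. Slc25a2, next to Taf7, and the predicted gene Gm37013 had no region in any of the 6 assays, and Gm37388 had CTCF in 1 list. Gm42416 shares its start window with Pcdha4 and had the same counts.

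The 12 non-clustered protocadherins, encoded elsewhere, were compared by the same counts. CTCF was called at 1 of 12 (Pcdh18, at 168 h) and RAD21 in 1 or more wt lists at 3 of 12. H3K27ac was called at 1 or more stages at 9 of 12, H3K27me3 at 7, PolII at 8 and NIPBL at 5. Over all genes these 4 shares were 66.1%, 22.1%, 56.0% and 57.2%. RAD21 in 1 or more wt lists was at 58.3% of all genes, and CTCF at 168 h at 23.6%. Among 14 regulators known to act on the clustered genes, 13 had H3K27ac at all 9 stages, against 44.7% of all genes. They included Smchd1 and Dnmt3b, which are needed for DNA methylation of the cluster. Dnmt3a had H3K27ac at 4 of 9 stages. All 6 genes listed as effectors or partners of the proteins had H3K27ac at 1 or more stages, and 5 had H3K27me3, against 66.1% and 22.1% of all genes. The neuronal genes had CTCF at 0 of 8, PolII at 1 or more stages at 5 of 8 and H3K27me3 at all 4 stages at 4 of 8. Over all genes these PolII and H3K27me3 shares were 56.0% and 9.79%, and CTCF lay at 24.3% at 72 h and 23.6% at 168 h.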

How the data were processed

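ChIP-seq (H3K27ac, H3K27me3) and ChIPmentation (CTCF, RAD21, NIPBL, PolII), in which Tn5 transposase adds the adapters, were performed on stembryos. Per the submitters' notes and the study's methods, reads were trimmed with cutadapt 1.16, mapped to mm10 with Bowtie2 2.3.4.1 and reduced by SAMtools 1.8 to proper pairs mapped with confidence. Regions were called on each library without input control by MACS2 2.1.1.20160309, and reads of Ins(2xCBS-d4d8) were mapped to an edited chromosome 2. The lists deposited by the authors give per summit a fold enrichment (the ratio of summit pileup to the background around it), and −log10 values of p and q. The wt cells and the lines made from them are of 129 origin, the mice behind the Del(CBS1-5) line were crossed to BL6 × CBA hybrids, and the reference is C57BL/6J.

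Summits sharing a region were merged. Genes came from GENCODE M21 (GRCm38). Pileups were solved from the deposited fold and −log10 p within 0.001, which succeeded for at least 98.55% of RAD21 summits. A RAD21 summit within 200 bp of a CTCF site was assigned to it. Log2 pileups were fitted with limma 3.58.1 (R 4.3.3). Coverage trends used exact permutation (Python 3.11.15, scipy 1.17.1), and the scripts were tested on simulated data. Motif background positions lay 1000 bp away. Groups and label tags came from the labels. Per the study's methods some replicate libraries came from separate stembryo cultures, and which RAD21 libraries these are is not given in the sources used here, so p-values measure the spread between libraries, which may be partly technical. Alternatives were other windows, thresholds, list lengths, scalings and left-out libraries. The 10 mutant H3K27ac and H3K27me3 lists were not used.

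Named were the C-type genes and Pcdhb1, for each assay the 5 members called in most lists (ties by position, others tied at the same count given beside them for H3K27ac, PolII and NIPBL) and those called in none where 5 or fewer, up to 10 members passing a trend test, members with CTCF in 1 wt list, and the neighbouring genes. Exceptions are marked as chosen after their values were seen, and also include the fold and position examples for single CTCF sites and the members behind counts of 5 or fewer. Members and gene lists were chosen with earlier results of these data known.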

Additional observations from a re-analysis of the deposited data

Results flagged for a closer look

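Elongating RNA polymerase II (pSer2 PolII) was outside the comparisons above, and a signal was present in it. A region was called at the start of 12 of 57 members at 1 or more of 5 wt stages, against 44.8% of all genes, and all 12 were gamma genes. From 72 h to 144 h, where 3 samples were pooled by the authors into the last list, the counts were 10, 1, 8, 1 and 0, in lists of 21823, 3987, 24177, 16045 and 6674 regions with 7.36% to 41.9% of all genes called. Pcdhga5 and Pcdhgc3 had a region in 3 of the 5 lists. There were no control libraries, and the cause of the difference between stages was not tested.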

How the results depend on the processing

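Under the alternatives, 136 values were within 1.5 times the reported count and 12 were not. With a −log10 q of at least 5, RAD21 in every wt list was counted at 16 members, PolII at 6 and NIPBL at 4, and with lists of equal length PolII at 6 and NIPBL at 4. A window of 2.5 kb gave H3K27me3 at 47 members. Pearson's r in place of Spearman's rho called 1 member for NIPBL, Pcdhgc3, where it called 19.8% of genes. The motif on the strand of the genes was counted at 6 sites with the 1% score and at 33 over the whole region, where a longer search finds more. RAD21 falling with stage was called at 4 sites with the cell type tag alone and at 30 of 51 when 12 of 16 lists sufficed. Leaving out libraries in turn, it was called at 12 (without 48 h) to 24 sites (without 168 h), and without 72 h replicate 1 it rose at 1 site. Counts ranged from 51 to 53 for CTCF, 29 to 33 for RAD21, 28 to 29 for H3K27ac, 26 to 30 for H3K27me3, 10 to 14 for PolII and 17 to 22 for NIPBL, with 0 in the other tests.

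With the replicate number as a block, 18 sites of the cluster were called for stage and 0 for Del(CBS1), where 21 sites were called over the genome. Deviations of same-numbered wt libraries correlated at 0.055 to 0.614 under the same tag (median 0.413), and with a median of 0.332 under different tags. Differently numbered libraries under different tags had a median of −0.378. Within several stages the deviations were mirror images of each other, so this negative value was partly fixed by how they were taken. As the lowest value was under the 0.1 taken as pairing, the numbers were not read as pairs. Libraries with the same number still tended to deviate together, which the main fit left out. A region below the calling threshold counts as absent, so depth and list length limit every absence. The NIPBL lists at 72 h and 84 h were the shortest. Per the paper's reporting summary, the 84 h library had more read pairs than those at 120 h and 132 h. The cause of its short list was not tested.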
